A study of Anopheles gambiae with 5 samples.

Results

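The long H3K27me3 islands are the regions of the midgut H3K27me3 profile of Anopheles gambiae whose listed end lay 10000 bp or more beyond the listed start. This rule took 917 of the 12939 H3K27me3 islands, or 7.09% (95% Wilson interval 6.66 to 7.54). The island list came from 1 ChIP-seq library of midguts pooled from adult females of the isogenic strain Kisumu, aged 6 to 8 days, kept on sugar solution and given no experimental treatment, and precipitated with an antibody against H3K27me3. An H3K27ac ChIP-seq library and an input library were made from midguts of the same kind, and RNA-seq libraries from midguts and from salivary glands. These 5 libraries are 1 per group, and the animals of a library were pooled, so the spread between animals is unknown, no difference was tested, and no p-value is given. Intervals on shares (Wilson) and on medians (order statistics) are at the 95% level, and cover counting over islands or genes of 1 library. Neighbouring islands are not independent, so these intervals are too narrow for anything beyond it.

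H3K27me3, the trimethylation of lysine 27 of histone H3, is written by the Polycomb repressive complex and marks chromatin in which genes are kept silent. In Drosophila melanogaster it is known for broad stretches that run over developmental regulators, the homeotic genes among them, and over the sequence between genes. H3K27ac, the acetylation of the same residue, marks active promoters and enhancers, and a single histone tail cannot carry both marks at that residue. The midgut is the tissue in which the malaria parasite first settles in the mosquito.

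The authors' caller, SICER, chains enriched windows across gaps up to a set size and reports each chain as an island. All 12939 islands started on a whole window of 200 bp and had a length 1 bp short of a whole number of windows, so the shortest member of the set measured 10199 bp and islands of 9999 bp stood just outside it. Each island carries a whole number in the list, which no source used here names. It is given as the SICER value and divided by the length in kb. The long islands were chosen by their length in this same library, so lengths and SICER values are described and not tested. Positions are those of AgamP4, counted from 1. Genes are named by VectorBase identifier, since 0 identifiers matched the RefSeq table at hand and symbols were known for few of them. Of the 6 carboxypeptidase B genes (CPB), which serve digestion in the gut, 3 touched an H3K27ac peak, beside 35.3% of all genes, so these genes gave no check of the tissue.

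The 917 long islands covered 17785683 bp, which was 33.5% of all bases under H3K27me3, and held 40.8% of the summed SICER value. Their median length was 14799 bp (interval 14199 to 15199) and the longest measured 130799 bp. By length, 486 islands were under 15000 bp, 179 were from 15000 to under 20000 bp, 215 from 20000 to under 50000 bp, and 37 were of 50000 bp or more. The last class, though few, held 14.6% of the bases in long islands, against 33.2% for the 486 islands under 15000 bp.

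Per kb, the SICER value of the long islands had a median of 130.8 (127.7 to 134.1) and ran from 67.7 to 384.5. Islands of 5000 to under 10000 bp had a median of 105.5 (104.0 to 107.8), and all 12022 islands under 10000 bp had one of 101.2 (100.6 to 101.8). At the edge of the rule the medians were close, since the 34 islands of 10199 bp had a median of 108.5 and the 30 islands of 9999 bp one of 110.2. Within the long islands the value climbed with length, from a median of 118.5 below 15000 bp to 131.3, 150.6 and 188.9 in the next classes. Spearman's rho between length and value per kb was 0.33 over the 917 long islands and -0.07 over the shorter ones, given as a description over islands of 1 library. At or above the 90th percentile of all islands, 159.7 per kb, stood 281 long islands (30.6%) and 1013 shorter ones (8.43%).

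**Figure D1:**
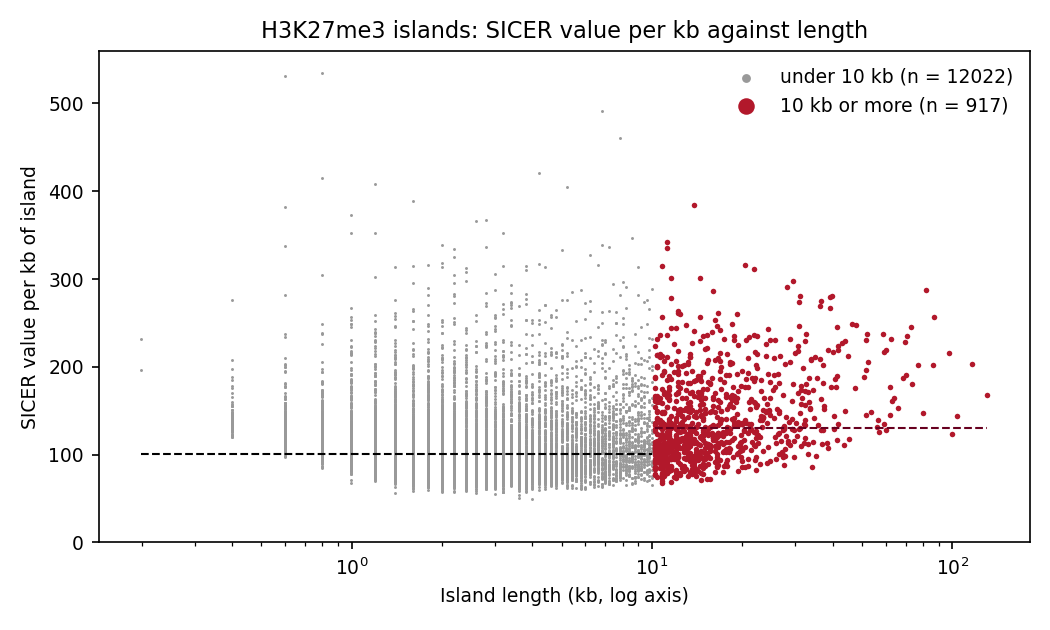
SICER value per kb (vertical axis) against island length in kb (horizontal, log axis) for 12022 H3K27me3 islands under 10 kb (grey) and 917 of 10 kb or more (red), 1 point per island. Dashed lines are the medians, 101.2 and 130.8, and the lower bound of the red cloud climbs towards the longest islands, none of which fell below 123.8 at 50 kb or more.

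The longest island ran on 2R from 863801 to 994599, had a SICER value of 167.9 per kb, touched no annotated gene and held 3 loci of unannotated transcripts. The next one, of 115799 bp on 3R from 3501001 to 3616799, held the genes AGAP007973 and AGAP007974 whole at 202.7 per kb. AGAP007973 measured 6680 bp and AGAP007974 measured 16669 bp, so that 92450 bp of this island lay outside annotated genes. An island of 103399 bp on 2R from 50780401 to 50883799 held all 79249 bp and 19 exons of AGAP004154, and covered 69.6% of its neighbour AGAP012977. AGAP004154 was the longest gene held whole by a single long island. The island from 16927001 to 17026999 on 2R, 99999 bp long, stood whole inside AGAP002178 and had 524 bp of exon and 99475 bp of intron.

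The highest value per kb, 384.5, belonged to an island of 13799 bp inside AGAP004228 on 2R, from 52256001 to 52269799. It was separated by 801 bp from an island of 86799 bp at 256.9 per kb that held the start of the same gene. Together these islands covered 91.6% of the 83428 bp of AGAP004228. The next values, 342.6 and 335.5 per kb, belonged to islands of 11199 bp each that stood 2201 bp apart on AGAP003672, also on 2R. Values above 300 per kb on other chromosomes were seen in islands touching AGAP007984 on 3R (316.5) and AGAP000416 on X (311.9). Of these islands, 19092 of 20399 bp and 21421 of 21799 bp lay outside annotated genes, and they reached only the ends of those genes. AGAP000416 also touched 1 H3K27ac peak. Islands holding AGAP012002 on 3L and AGAP007060 with AGAP007061 on 2L whole had 314.6 and 301.3. An island of 11599 bp without a gene on 3L had 300.9. On 2R, an island touching AGAP002235 and AGAP028257 had 297.8, and one of 28199 bp inside AGAP002288 had 291.2. AGAP002288 touched 2 H3K27ac peaks, and that island 0. At the other end, islands of 10799 bp inside AGAP002296 on 2R and of 11599 bp inside AGAP006018 on 2L had 67.7 and 68.3 per kb.

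Long islands were found on the 5 assembled chromosomes, where 2R had 283, 3R had 207, 2L had 162, X had 138 and 3L had 127, and none was in the unplaced sequence UNKN, where 160 shorter islands were listed. Reads from repetitive sequence were filtered out by the authors, and what that did to UNKN was not tested. With the last feature in the lists as the end of a chromosome, X had 5.66 long islands per Mb, 2R 4.60, 3R 3.89, 2L 3.28 and 3L 3.03. The share of the chromosome under them ran from 10.8% on X and 9.40% on 2R to 7.73% on 3R, 6.02% on 2L and 5.45% on 3L. Median lengths were alike, from 14399 bp on 3L to 14799 bp on 2L, 2R and 3R, while the median value per kb was 145.6 on X and between 125.0 and 135.5 on the other 4.

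Along a chromosome the islands were uneven. In 48 stretches of 5 Mb or what was left at an end, the median share under long islands was 6.14%. The highest share, 27.3%, was in the last stretch of 3L from 40 Mb, followed by 24.0% in the first 5 Mb of 2R, 21.1% from 5 to 10 Mb on 3R and 20.6% in the first 5 Mb of 3R. The last stretch of 2L, from 45 Mb, had 14.6%, and the first 5 Mb of X 15.9%. Low shares were seen from 0 to 5 Mb on 2L (0.896%), from 5 to 10 Mb on 3L (0.928%), and from 35 to 40 Mb on 2R (1.06%). From 20 Mb to the end of X there was no long island, in a stretch with 12.3 genes per Mb. The last stretch of 2R, from 60 Mb, was as poor in genes, at 10.6 per Mb, and had 10.9% under long islands.

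An annotated gene here is a model built from the merged transcripts that carry its identifier, and 13102 genes had one. For 11868 genes the model matched the annotation (class =). For 1036 and 198 genes it was an assembled transcript of class j or o, which does not match the annotated form. Among genes named here, AGAP002310, AGAP007416, AGAP004201 and AGAP002288, for example, had class j models and AGAP008093 a class o model. Lengths, exons and genes held whole are those of the models. Of the long islands, 574 (62.6%, 59.4 to 65.7) touched a gene by 1 bp or more, 403 (43.9%) held the start of one, and 260 (28.4%, 25.5 to 31.4) held at least 1 gene whole. Lying whole inside 1 gene were 151 (16.5%, 14.2 to 19.0), and 343 (37.4%, 34.3 to 40.6) touched no gene. Longer regions touch more features by their size alone, so the shares in shorter islands are set beside these without a test: 55.2% of islands of 5000 to under 10000 bp touched a gene and 15.6% held one whole, while 22.6% lay inside a gene. Per Mb of island the direction turned for whole genes, at 20.7 in long islands, 27.7 in islands of 5000 to under 10000 bp and 24.6 in all shorter islands.

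Most long islands with a gene had just 1: 407 islands touched 1 gene, 124 touched 2, 26 touched 3, 11 touched 4 and 6 touched 5 or more. Among the 260 islands that held genes whole, 188 held 1, 45 held 2, 20 held 3, 5 held 4 and 2 held 5. Both of the last stood on 2L. The island from 46859401 to 46881199 held AGAP007486 to AGAP007490, genes of 653 to 3910 bp, at 110.6 per kb. The island from 39108201 to 39125999 held AGAP006831 to AGAP006834 and AGAP028401, genes of 583 to 1971 bp, at 215.1 per kb, and also the start of AGAP006835. Islands with 4 whole genes lay, for example, on chromosome 3L (AGAP012263 to AGAP012266), chromosome 2R (AGAP001183, AGAP001184, AGAP013501 and AGAP001185) and chromosome X (AGAP000128, AGAP012973, AGAP000129 and AGAP000130). Genes that followed each other whole in 1 island lay on the same strand in 56 of 108 pairs (51.9%, 42.5 to 61.0), beside 45.8% of neighbouring genes along the chromosomes.

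**Figure D2:**
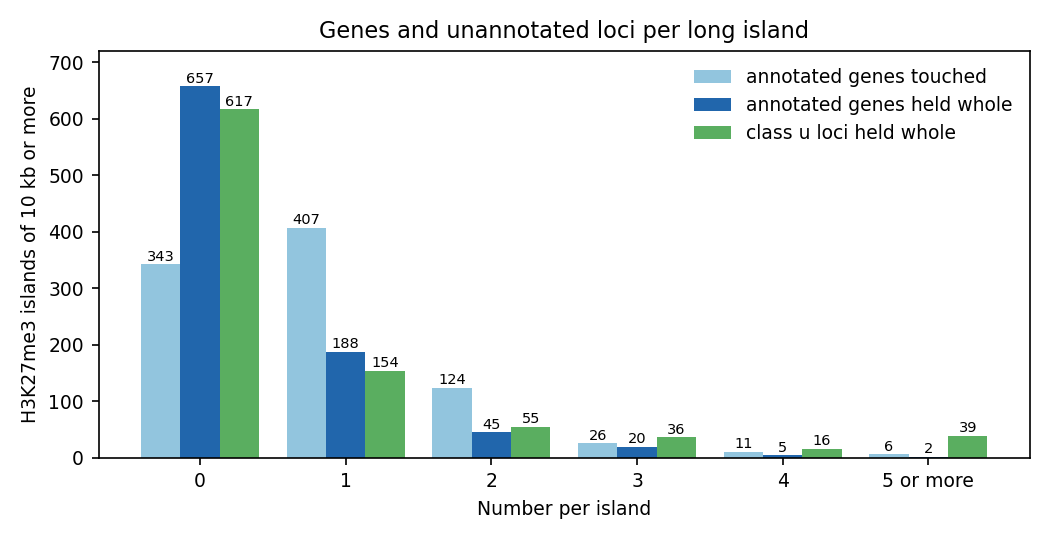
Number of long H3K27me3 islands (vertical axis, of 917) by the number of annotated genes touched, annotated genes held whole, and unannotated class u loci held whole (horizontal axis, 0 to 5 or more). The bars at 0 stand at 343, 657 and 617, and 5 or more class u loci were held whole by 39 islands, against 2 islands for 5 or more whole genes.

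The SICER value per kb differed among islands by what they held. Islands with a gene whole had a median of 145.0 (136.0 to 157.0), those with a gene in part only, and not inside it, 136.0 (129.3 to 147.6), those with no gene 121.6 (117.1 to 130.0), and those inside a gene that held no other gene whole 116.1 (107.4 to 126.0). The same order was seen in islands of 5000 to under 10000 bp, at 120.9, 114.1, 102.8 and 96.8. Islands inside a gene were also shorter, at a median of 13599 bp, while those with a whole gene had 15799 bp. In islands of 5000 to under 10000 bp the median lengths were 6799, 6999, 6799 and 6599 bp in the same sequence.

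Bases of long islands fell 8.51% in exons, 29.8% in introns and 61.7% outside annotated genes. Over the 5 assembled chromosomes these shares were 12.9%, 28.3% and 58.8%. In islands of 5000 to under 10000 bp they were 13.0%, 27.7% and 59.3%, and in all islands under 10000 bp 13.0%, 25.4% and 61.6%. The long islands therefore lay outside genes about as often as shorter islands did, and within genes they held less exon: exons made up 22.2% of their gene bases, against 32.0% in islands of 5000 to under 10000 bp, 34.0% in all shorter islands and 31.2% on the chromosomes. Gene starts were also thinner, at 32.2 per Mb of long island, against 51.7 and 57.4 per Mb in the 2 classes of shorter islands and 54.4 per Mb on the chromosomes.

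**Figure D3:**
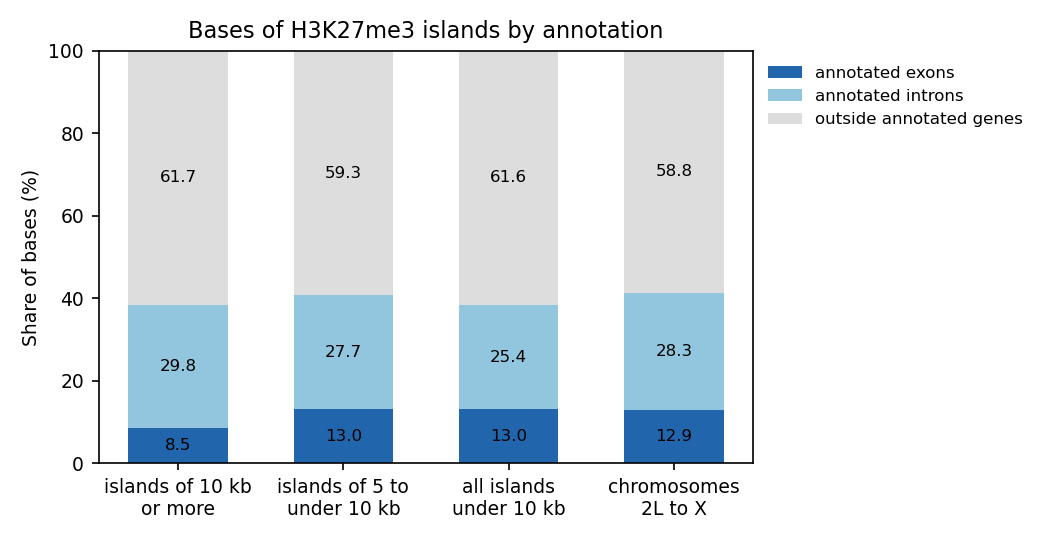
Share of bases (vertical axis, %) in annotated exons, annotated introns and outside annotated genes, for long H3K27me3 islands, islands of 5 to under 10 kb, all islands under 10 kb and chromosomes 2L, 2R, 3L, 3R and X. The exon share is 8.51% in the long islands and 12.9% to 13.0% in the other bars.

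The 151 islands inside a gene belonged to 106 host genes with a median length of 59245 bp (49606 to 70179), beside 2262.5 bp for all genes. Of them, 58 islands had no exon base and so lay in introns alone, and 25 host genes held 2 or more such islands. AGAP002315, a gene of 252397 bp with 7 exons on 2R from 19231025 to 19483421, held 7. These 7 islands measured 10199 to 35399 bp, had SICER values of 112.8 to 194.8 per kb and covered 56.6% of the gene, but 30 bp of its exons. AGAP002310, of 150577 bp on the same chromosome, was covered to 92.4% by 4 long islands, which took 6721 bp of its 7907 bp of exons. AGAP005564 on 2L and AGAP004201 on 2R held 5 such islands each.

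Of the 13102 annotated genes, 713 shared bases with a long island, a background of 5.44%. Any H3K27me3 island touched 3719 genes, and 19.2% of these were touched by a long one. The rate followed gene length: 82 of 343 genes of 50000 bp or more were touched (23.9%, 19.7 to 28.7), and 631 of 12759 shorter genes (4.95%, 4.58 to 5.34). Long islands reached 571 of the 713 genes at their start (80.1%), a count that takes in the 368 genes held whole, whose start is covered by definition. Genes held whole made up 51.6% of the 713. Of genes touched by islands of 5000 to under 10000 bp and by none longer, 39.1% were held whole.

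The 713 genes fell into a group held whole and a group held in part. The 368 genes held whole were short, with a median of 1842.5 bp (1678 to 2127), and 16.6% of them had a single exon (13.1 to 20.7), beside 13.6% of all genes. The 345 genes held in part were long, with a median of 21183 bp (18525 to 24064), and the median share of such a gene under long islands was 54.7%. Of the latter, 173 had their start but not their end under a long island (50.1%), 68 their end but not their start (19.7%), 74 neither (21.4%) and 30 both (8.70%). Genes held in part by islands of 5000 to under 10000 bp and by none longer had the start alone in 44.8% and the end alone in 25.0%. A gene with several listed starts was counted once any of them was covered, whereas it had a single end, and this favours starts in both classes.

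By bases under long islands, AGAP002178 led with 145233 bp, 92.6% of its 156781 bp. AGAP002315 had 142793 bp, AGAP002310 139188 bp, AGAP001189 128660 bp (95.1% of the gene) and AGAP007416 120870 bp (81.5%). AGAP005564, AGAP008100, AGAP004154, AGAP027996 and AGAP004228 followed with 107395 to 76433 bp. AGAP027996, on 3R from 21544863 to 21625740, was covered to 97.1% by 3 long islands. Of these 10 genes, AGAP008100 was the one that touched H3K27ac peaks, 3 of them, and 70.2% of it lay under 4 long islands. Over all genes, 69 were reached by 2 or more long islands.

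The homeotic genes AGAP004659 and AGAP004660, named in the study as Antennapedia homeotic genes, were touched by 3 long islands on 2R. AGAP004659, of the minus strand from 59729112 to 59775876, had its start in an island of 29199 bp that covered 14.3% of the gene. AGAP004660, of the minus strand from 59826776 to 59921675, had 45.5% of its bases under an island of 30999 bp and an island of 21399 bp. The island of 30999 bp held 7803 bp of exon, and the other lay whole in an intron. In order along the chromosome these islands had 140.6, 130.7 and 105.5 per kb, beside the median of 130.8 for all long islands. A further long island, of 12199 bp and 98.8 per kb, lay between the genes. The 4 islands belonged to a domain of 124999 bp with 89.6% of its bases under H3K27me3 and no H3K27ac peak. That share is of the domain and not of the genes: islands of any length covered 39.9% of AGAP004659 and 66.7% of AGAP004660.

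No long island touched any of the 66 candidate genes that the study listed for immunity, resistance and reproduction. By the rule of 3, not the Wilson method, a count of 0 allows up to 4.55% if genes are taken as independent. Many of these genes are close neighbours, so this bound is too low to set against the 5.44% background. No test was made. Shorter islands touched 27 of the 66, the longest being of 8999 bp, beside 28.4% of all genes touched by any H3K27me3 island. Among prophenoloxidases, the precursors of the melanization enzyme, 7 of 9 touched an island and 0 a long one, to be read beside the same 28.4%, as for the families that follow. For C-type lectins, which bind sugars on microbes, this was 4 of 9, for defensins 3 of 5 and for cecropins 2 of 4, both families of antimicrobial peptides, and for the complement-like genes APL1A to APL1C, LRIM1 and TEP1 2 of 5. Inhibitors of apoptosis had 1 of 7, carboxypeptidases B 2 of 6 and cytochromes P450 0 of 4. A long island came within 10000 bp of 6 of the 66 genes. They were CACTUS, which holds back the immune transcription factor REL1, DEF3, DEF5, IAP8, LANB2 and CYP6AJ1, at 1475 bp (LANB2) to 9294 bp (DEF3). Of all genes of the assembled chromosomes, 12.7% had a long island within that distance or on them.

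The 343 long islands with no annotated gene had a median length of 14199 bp. The nearest gene was at a median of 12141 bp (10176 to 15293), within 1000 bp for 26 of them (7.58%) and within 10000 bp for 150 (43.7%). Transcripts of class u, which were assembled from the RNA of both tissues where no gene is annotated, were touched by 161 of them (46.9%). For 166 (48.4%, 43.2 to 53.7) the lists gave no transcript of any class, which made 18.1% of all long islands free of listed transcripts. The same share was 25.8% in islands of 5000 to under 10000 bp and 40.1% in all shorter islands, which touch fewer features by their size alone.

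Over all long islands, 328 (35.8%, 32.7 to 38.9) touched a class u locus and 300 held at least 1 whole. They reached 839 of the 13967 class u loci (6.01%), of which 739 lay whole in the island. In size the loci touched were close to the rest: their median span was 770 bp, against 776 bp for all, and 33 of them were spliced (3.93%, 2.81 to 5.47), against 3.69% of all. Per Mb, long islands held 41.6 whole class u loci, islands of 5000 to under 10000 bp 39.7 and all shorter islands 34.5. The chromosomes had 54.7 class u loci per Mb. Longer islands cut fewer loci at their edges, which favours them in a count of whole loci. By bases the order turned: class u loci took 5.46% of long islands, 6.88% and 7.01% of those shorter classes, and 7.39% of the chromosomes. An H3K27ac peak touched 13 of the 839 loci (1.55%), against 13.0% of all class u loci. The assembly gives positions and no abundance, and it does not tell the midgut from the salivary gland, so a transcript listed inside an island may come from either tissue.

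Class u loci were concentrated in a few long islands, since 47 islands touched 5 or more. An island of 81599 bp on X, from 1640601 to 1722199, held 21 whole beside the single-exon gene AGAP001493 of 1464 bp, and had 287.9 per kb. An island of 59399 bp on 3R, from 21711401 to 21770799, held 18 and no gene, at 216.6 per kb. On 2R, an island of 36399 bp from 3752601 to 3788999 held 13 whole and was itself spanned by the spliced locus XLOC_005798, which has 4 exons over 56590 bp. Other long spliced loci were XLOC_014498 on 3L, 42523 bp with 39807 bp under long islands, and XLOC_022075 on 3R, 109856 bp with 38499 bp under them. XLOC_016609 on 3L and XLOC_004331 on 2L had 20037 and 17955 bp. Of these loci, XLOC_005798 touched 2 H3K27ac peaks and XLOC_022075 touched 1, while XLOC_014498, XLOC_016609 and XLOC_004331 touched 0.

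H3K27ac was rare in the long islands. Of 917, 18 shared bases with an H3K27ac peak (1.96%, 1.25 to 3.08), beside 1.83% of islands of 5000 to under 10000 bp and 1.11% of all shorter ones. These were 20 of 6639 H3K27ac peaks, 18 of which crossed an edge of the island and 2 of which lay whole inside. The shared bases came to 21473 bp, or 0.121% of the long islands, whereas H3K27ac peaks made up 7.57% of the chromosomes. The median overlap was 606.5 bp.

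Most of the shared bases lay in 1 island, of 14799 bp on 3R from 37552001 to 37566799. It shared 12146 bp, or 82.1% of its length, with 3 H3K27ac peaks, and its SICER value, 78.2 per kb, was low for a long island. The gene AGAP009646, of 14515 bp with 2 exons, lay whole inside it. Without that island the shared bases came to 9327 bp (0.0525%), and the next largest overlap was 1414 bp, in an island of 51399 bp on 2L that touched AGAP005011.

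AGAP009646 was the 1 of the 368 genes held whole that touched an H3K27ac peak (0.272%, 0.0480 to 1.52). Of genes held in part, 47 of 345 did (13.6%, 10.4 to 17.6), of genes touched by shorter islands only 11.9%, and of all genes 35.3%. The 11.9% takes genes held whole and in part together. Genes held whole by shorter islands were not counted apart, so the low share is not shown to be particular to long islands. From the edges of long islands, the next H3K27ac peak outward was at a median of 55808.5 bp (50955 to 59957), within 1000 bp at 58 of 1834 edges (3.16%), and at 14.7% of edges it came before the next H3K27me3 island. Edges of islands of 5000 to under 10000 bp had a median of 54202 bp, 2.08% within 1000 bp and 15.0% with H3K27ac first, and edges of all shorter islands 63436.5 bp, 1.43% and 13.7%.

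Long islands lay close to other islands. The nearest H3K27me3 island of any length was at a median of 1001 bp, and within 2000 bp for 716 of them (78.1%, 75.3 to 80.6). For islands of 5000 to under 10000 bp this share was 69.5%, and for all shorter islands 58.6%. The smallest gap in the list was 801 bp, and 341 long islands (37.2%) had a neighbour at that distance. This floor follows from the authors' gap setting in SICER, which joined anything closer, and is no property of the chromatin. Gaps of 1601 bp or less bordered long islands at 960 of 1834 edges (52.3%).

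**Figure D4:**
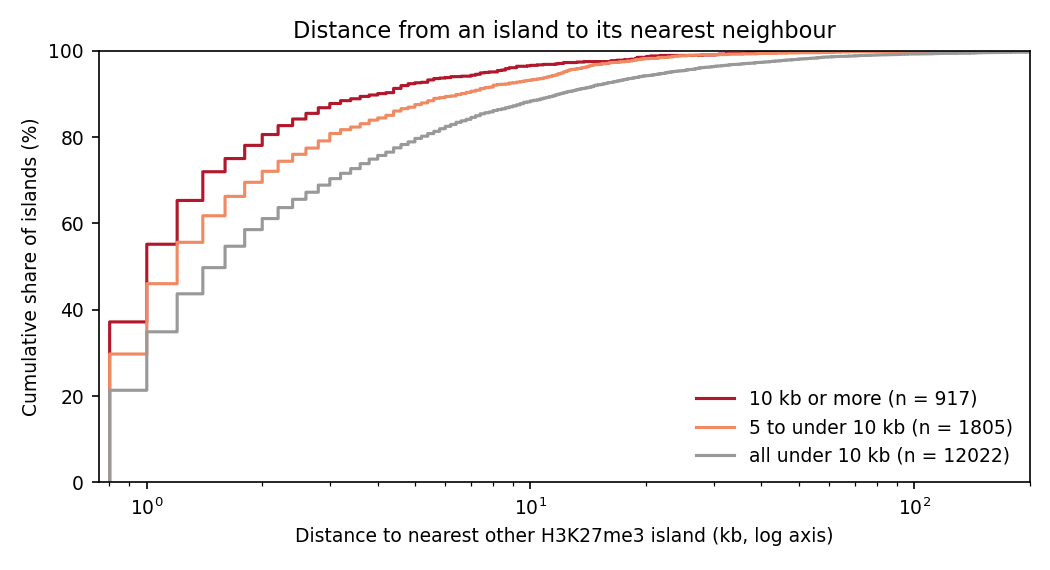
Cumulative share of islands (vertical axis, %) by the distance to the nearest other H3K27me3 island (horizontal, kb, log axis), for 917 long islands, 1805 islands of 5 to under 10 kb and 12022 islands under 10 kb. The curve of the long islands starts at 37.2% at the smallest gap, a floor set by the caller, and lies above the other curves to about 10 kb.

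Between neighbouring long islands on a chromosome the median distance was 43701 bp (36201 to 54001). The next long island was within 5000 bp in 189 of 912 cases (20.7%, 18.2 to 23.5), and within 50000 bp in 475 (52.1%, 48.8 to 55.3). Gaps from 5000 to 50000 bp were filled to 44.9% by shorter islands, and gaps beyond 50000 bp to 16.6%. H3K27ac peaks were in 7 of the 189 short gaps, in 62 of the 286 middle ones and in 389 of the 437 long ones. Neighbours also had like SICER values per kb: Spearman's rho was 0.62 over 189 pairs within 5000 bp, 0.43 over 286 pairs up to 50000 bp apart and 0.16 over 437 pairs farther apart. The points of a chain share islands, and all come from the same library.

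Joining H3K27me3 islands of any length that stood 5000 bp or less apart gave 568 domains with at least 1 long island. Of these, 186 held 2 or more, and they took in 535 of the 917 long islands (58.3%, 55.1 to 61.5). There were 81 domains with 3 or more long islands and 19 with 5 or more. The 186 domains had a median span of 87099 bp (76799 to 100199) and a median of 87.4% of their bases under H3K27me3. Of all 568 domains, 90 reached 100000 bp, 13 reached 200000 bp and 3 reached 300000 bp. Within a domain of 2 or more, the highest SICER value per kb of a long island was a median of 1.32 times the lowest. For pairs of neighbouring long islands, the median ratio of the higher to the lower was 1.22 within 5000 bp. It was 1.26 from 5000 to 50000 bp and 1.34 farther apart. A domain can hold more than 2 long islands, so the measures differ, and evenness particular to domains is not shown.

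The 535 islands in such domains had a median length of 15799 bp and 135.6 per kb (132.4 to 142.1), and the 382 others 13399 bp and 122.1 per kb (117.2 to 128.1). Fewer of the former touched a gene, 55.5% (51.3 to 59.7) against 72.5% (67.8 to 76.7). H3K27ac peaks were in 10 of the 535 and in 8 of the 382. Of the 186 domains, 167 held no H3K27ac peak (89.8%, 84.6 to 93.4) and 10 touched no annotated gene. The median number of genes per domain was 2 and the highest 13.

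By bases under long islands the first domain lay on 2R from 863801 to 1163599. It was made of 3 long islands with gaps of 801 bp, which covered 99.5% of 299799 bp and included the longest island of the list. AGAP001189, AGAP013177 and AGAP001187 lay in its right-hand portion, and 12 class u loci lay to the left of them, where no gene was annotated. AGAP001189, of 135306 bp, had 4 exons of 514 bp in all, of which 14 bp were under the islands, so that nearly all of its bases under H3K27me3 were intronic. AGAP001187, on the other strand, had 8194 bp of its 10072 bp of exon under the third island.

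The second domain, on 3R from 5328401 to 5631199, was the one with the most long islands, 12 of 18 islands. It held the genes AGAP008091 and AGAP008093 whole in long islands, and AGAP008092, of 1367 bp, in a gap between islands. That gap also held the domain's single H3K27ac peak. The third, on 2R from 16917801 to 17191999, had 5 long islands and AGAP002178, whose start lay in an island of 73399 bp that also held 10 class u loci whole. The longest domain of all spanned 394799 bp on 2L from 22720001 to 23114799, with 11 long islands among 43, 207789 bp under the long ones, 4 genes and no H3K27ac peak.

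**Figure D5:**
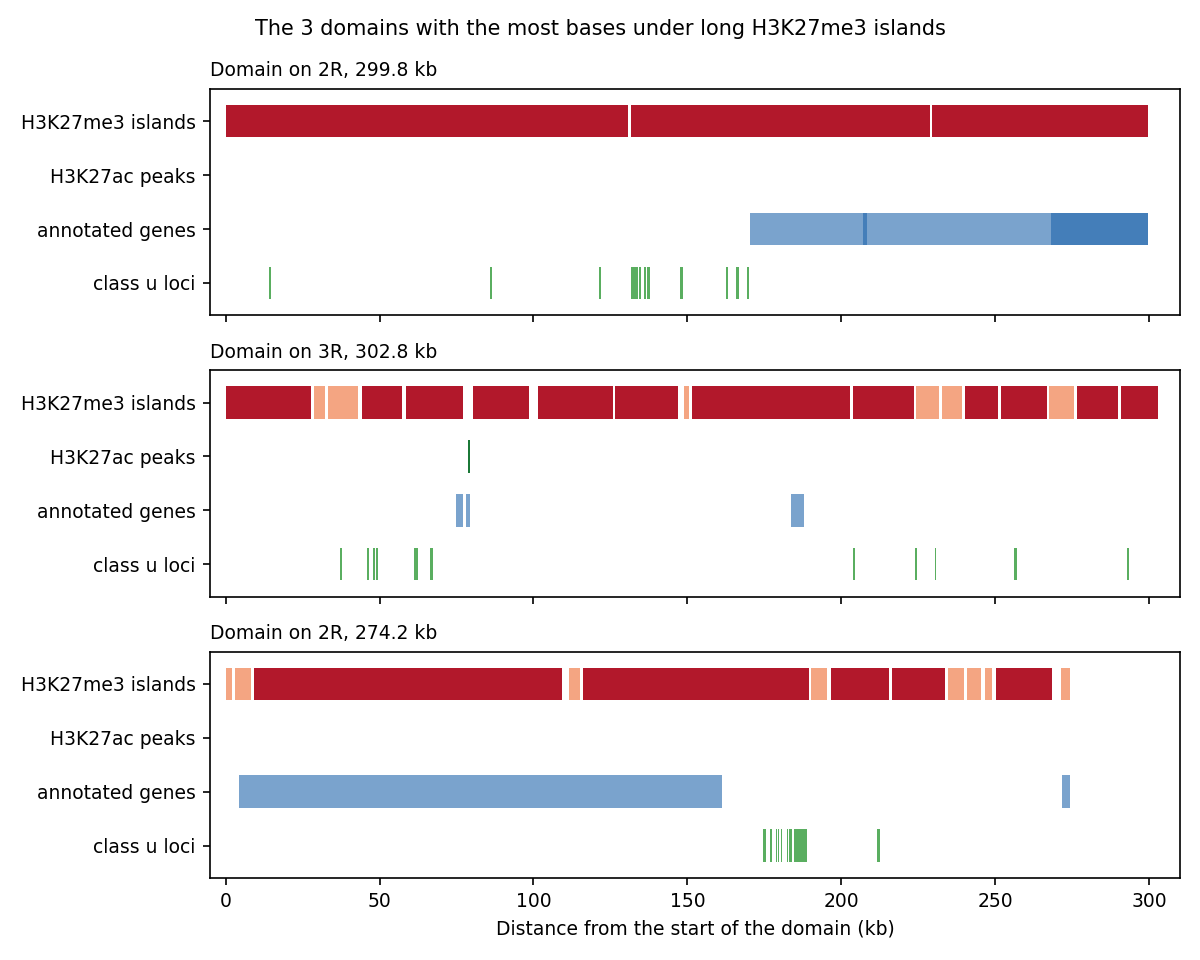
Map of the 3 domains with the most bases under long H3K27me3 islands (horizontal axis, kb from the start of the domain), with islands of 10 kb or more in dark red, shorter ones in light red, H3K27ac peaks in dark green, annotated genes in blue (overlapping genes darker) and class u loci in green. The domains span 299.8, 302.8 and 274.2 kb and hold 3, 12 and 5 long islands, and the single H3K27ac peak, in the second, lies in a gap between islands.

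The domains with 2 or more long islands touched 526 of 13102 genes (4.01%), and 27 of these genes had no H3K27me3 island on them. The 27 genes were short, with a median of 98 bp (73 to 740) and at most 2054 bp, and 5 of them touched an H3K27ac peak. Of the 66 candidate genes, 5 lay in such domains (7.58%, 3.28 to 16.5), and they lay in 2 of the domains. The domain with 13 genes, on X from 12431201 to 12540199, held CEC1, CEC2 and CEC3. CEC2 was covered whole by an island of 3599 bp and CEC3 to 77.0% by one of 799 bp, while CEC1, between them, had none. CEC1 and CEC3 each touched 1 H3K27ac peak, and CEC2 touched 0. A domain on 3R from 4986201 to 5084999 held NOX5, an oxidase gene with 74.6% of its bases under shorter islands, and the carboxypeptidase B gene AGAP008070 with 45.9%.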

How the data were processed

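Midgut ChIP-seq (H3K27ac, H3K27me3, input) and midgut and salivary gland RNA-seq were analysed from the deposited lists, with 1 library per group. ChIP reads had been aligned by the authors to AgamP4 using Bowtie 1.0.0 with repetitive reads filtered out, and they called H3K27ac peaks with MACS 1.4 and H3K27me3 islands with SICER (version not given in the sources used here), both against input. The deposited H3K27ac list holds positions and a MACS score, and the deposited H3K27me3 list holds positions and a whole number per island, treated as a score because no source states that it counts reads. RNA reads were mapped with TopHat2 2.0.10 and assembled with Cufflinks 2.1.1 by the authors, who deposited 34919 transcripts of both tissues in 1 list of positions and class codes, without abundance. Versions are from the submitters' processing notes. Expression, reads and the input library were not used here, and no depth was computed.

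Genes were the class = transcripts, or class j or o where a gene had none (11868, 1036 and 198 genes). Features touched where 1 bp was shared, and a start was the first base of any transcript of a gene. Domains joined islands up to 5000 bp apart. Scripts ran in Python 3.11.15, using pandas 2.3.3 for tables, numpy 2.4.6 and scipy 1.17.1 for statistics, and matplotlib 3.10.9 for plots. Overlap, joining and interval functions were tested on simulated data. Genes named were drawn from the lists that follow, and some members of these lists are not named. The islands used were the 10 longest, the 10 with the highest value per kb and the 5 holding most genes whole. Further lists were the genes of the 3 domains with most bases in long islands and the 10 genes with most bases under long islands. The study's candidate and homeotic genes were also used, and the 5 class u loci with most bases, all and spliced. Others named here, such as AGAP009646, AGAP005011, AGAP001493, AGAP004201, the islands lowest per kb, the longest domain and the candidates near or in domains, were chosen after their values were seen. The members and lists were chosen with earlier results of these data known. Alternatives were other length limits, overlaps, gene models, joining distances and score limits. No genome of AgamP4 was at hand, so no sequence is shown.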

Additional observations from a re-analysis of the deposited data

How the results depend on the processing

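No paired analysis was possible because each group has 1 library, and for the same reason no replicate could be left out and the spread between animals limits every value. Leaving out UNKN could change nothing, as it holds no long island. Of the 59 other alternatives to 12 results, 32 stayed within the main value's interval, or within 1.5 times a count, and 27 did not. For the shares of bases in exons, in introns and outside genes, the interval was computed as if each island were a yes or no count. It measures no spread of bases, so staying within it or not means little for those shares. With a length limit of 15000 bp there were 431 islands and 86 domains of 2 or more, 66.4% of islands touched a gene, 32.5% held one whole, 13.5% lay inside one, 39.7% touched a class u locus, the median was 143.8 per kb, and the median distance was 110901 bp. With 8000 bp, 24.9% held a gene whole, 32.5% touched a class u locus, the median was 123.5 per kb and the distance 30401 bp. With islands at or above the median value per kb of all islands, 32.1% held a gene whole, 13.7% lay inside one, and the median was 145.5 per kb by construction. With class = models alone, 55.9% touched a gene, 12.6% lay inside one, and 24.5% of bases were intronic and 68.1% outside genes. With class =, j and o models together these were 66.5%, 24.4%, 36.6% and 53.9%, so the intronic share rests on the models used. Counting 90% of a gene as whole gave 32.1% of islands. An overlap of 500 bp left 30.3% of islands with a class u locus, and spliced loci alone left 4.14%. H3K27ac peaks at or above the median score touched 0.981% of long islands. For the other shifts the cause was not tested.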
